A study of Mus musculus with 8 samples.

Results

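Genes of the DNA replication machinery were followed in cells labelled C2C12 and given a ginseng preparation or a purified ginsenoside. The 38 genes were chosen by symbol from textbook roles at the replication fork and at S phase entry, with earlier results of these data known. All 38 were present in both expression tables, of 52338 genes listed in one and 52139 in the other. C2C12 is an immortalized mouse myoblast line, labelled wild type for every library. In the first experiment 3 libraries of DMSO-treated cells stood against 3 libraries of cells given ginsenoside Re, a steroidal saponin of ginseng. In the second, 1 DMSO library stood against 1 library of cells given GBC, a Ginseng Berries Concentrate. The labels name the same line and genotype for every group, and those used here state neither the dose nor the time of treatment. The myoblast marker levels of the GBC pair, given below, do not bear out that line. The labels call the cells myoblasts and the series' design text calls them myocytes. Nothing in the labels says that libraries came from separate cultures, so the p-values below measure only the spread between these libraries, which may be technical. Levels are given in TPM, a measure of transcripts per length and library, taken back from the deposited log2(TPM + 1) values.

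Replication begins in G1, when the origin recognition complex, Cdc6 and Cdt1 load the ring of Mcm2 to Mcm7 onto origins, a step called licensing. At S phase entry Cdc45, the GINS complex and Mcm10 turn the loaded ring into an active helicase, replication protein A (RPA) coats the exposed single strands, and polymerases copy them while held by the sliding clamp PCNA. Many of these genes are transcribed together under E2F factors as cells leave G1, and myoblasts turn them down when they leave the cycle to differentiate. In bulk RNA a smaller share of cells in S phase and less RNA per cell cannot be told apart.

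Because E2F1 is itself among the 38 genes, the promoters were searched for the E2F-type letters TTTCCCGC, TTTCGCGC, TTTGCCGC and TTTGGCGC, on both strands and with overlapping matches allowed. RefSeq windows (GRCm38.p6) from 250 bases before to 50 bases after the start were matched by symbol for 31 of the 38 genes. Of these, 12 genes held a match, in 34.3% of their 35 windows against 2.26% of all 32851 windows of the same length. The CCAAT letters were in windows of 20 genes, in 60% of their windows against 37.4% of all. The 8 genes with a match before the start are shown so that their shared letters can be compared, 5′ to 3′ along the gene, with the E2F-type letters in capitals. In Mcm3, Lig1, Pold1 and Cdt1 the matches lay after the start. A match describes the letters and does not show binding. Windows were not matched for Pole, Gins1, Ccne2, Gins2, Mcm4, Gins4 and Rfc2.
Mcm6 (chr1:128359788-128359831, minus strand): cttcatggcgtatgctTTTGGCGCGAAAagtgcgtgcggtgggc
Mcm5 (chr8:75109340-75109383, plus strand): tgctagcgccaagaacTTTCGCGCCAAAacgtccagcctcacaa
Mcm7 (chr5:138172025-138172064, minus strand): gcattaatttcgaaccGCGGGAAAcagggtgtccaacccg
Orc1 (chr4:108579411-108579450, plus strand): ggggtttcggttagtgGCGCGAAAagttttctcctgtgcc
Cdc6 (chr11:98907997-98908036, plus strand): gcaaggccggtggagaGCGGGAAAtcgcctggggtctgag
Gins3 (chr8:95633502-95633541, plus strand): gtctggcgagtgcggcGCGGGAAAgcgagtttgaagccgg
Rfc3 (chr5:151651209-151651234, minus strand): aagtgacgtcgcacgcTTTCGCGCtc
Pola1 (chrX:93632270-93632309, minus strand): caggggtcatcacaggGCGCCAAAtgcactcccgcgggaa
In Mcm6 and Mcm5 matches overlapped, so the capitals there run over more than a single match. Rfc3 held a match from 10 to 3 bases before the start and another that began at base 1 after it. Outside the stretches shown, Mcm6 held a further match that began 47 bases before the start. Mcm7 held another that began at base 17 after the start.

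The 2 tables differed in more than treatment. Myoblast markers summed to 201.56 to 221.89 TPM in the DMSO libraries and 202.65 to 215.66 TPM in the Re libraries, but to 1.98 and 1.67 TPM in the GBC pair, where Myod1, Myf5 and Cdh15 were listed at 0 in both libraries and Des was at 1.92 and 1.59 TPM. In the Re experiment Myod1 was at 9.95 to 13.64 TPM and Des at 114.91 to 127.36 TPM. Pax7 was at 0.13 TPM or less in every library of both tables. The 9 myocyte markers summed to 1.99 to 6.32 TPM in the DMSO libraries and 2.24 to 3.27 TPM in the Re libraries. In the pair they summed to 0.44 (DMSO) and 0.22 TPM (GBC). Thy1, a surface marker of fibroblasts among other cells, was at 23.75 and 22.11 TPM in the pair and at 0.08 TPM or less in the Re experiment. Col3a1, a fibrillar collagen, went the other way, at 19.77 and 39.32 TPM in the pair and 177.8 to 271.18 TPM in the Re experiment. Pdgfra went with Thy1, at 5.85 and 9.84 TPM in the pair and 1.85 to 3.07 TPM in the Re experiment. Col1a1 was at 10.94 (DMSO) and 46.64 TPM (GBC) in the pair and 12.91 to 20.03 TPM in the Re experiment. Dcn and Postn were at 1.40 TPM or less in every library. The 6 fibroblast markers together summed to 60.98 TPM (DMSO) and 118.57 TPM (GBC) in the pair. Their sums in the Re experiment, 195.66 to 289.07 TPM, were higher, and Col3a1 made up most of them. The part of these markers in the results below was not tested. The listed TPM did not sum to the same total in each library: sums ran from 642180 to 743269 in the Re experiment, and were 403442 (DMSO) and 479938 (GBC) in the pair. Read depth is unknown, since TPM does not keep it. TPM are scaled within each library and the listed sums differed between the tables, so levels set across the tables are a description.

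After ginsenoside Re most replication transcripts were listed slightly higher than in DMSO, and none passed the test. The largest differences belonged to the small RPA subunits Rpa3 and Rpa2, at 0.32 and 0.31 on the log2(TPM + 1) scale, followed by Rfc5 and Cdc45. Of the 38 genes, 34 were above 0 (89.5%, against 77.5% of all genes tested) and 4 below, namely Pold1, Rfc3, Lig1 and Rrm2. Their median difference was 0.11, with a range from -0.10 to 0.32. The median of all 11967 genes tested was also 0.11, and 23 of the 38 lay above it.

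With limma and Benjamini-Hochberg adjustment over all genes tested, 0 of the 38 had an adjusted p under 0.05, against 0% of all genes (0 of 11967). Adjusted p ran from 0.687 to 0.994 over the 38 genes in limma. At an unadjusted p under 0.05 there were 4 of 38 (10.5%), Rpa3, Cdc45, Gins4 and Rpa2, all higher in Re, against 6.23% of all genes in either direction and 5.65% higher in Re. Every Re library was above every DMSO library for 7 genes (18.4%), Mcm3, Mcm5, Cdc45, Gins4, Pcna, Rpa2 and Rpa3, against 13.7% of all genes, and the reverse order was seen for 0 genes, against 1.27%. When libraries were scaled by the median of ratios, which brings the median of all genes to -0.00, 20 of the 38 remained above 0 and Cdc45 alone kept groups that did not overlap, against 5.24% of all genes. The other 3 scalings were equal sums of TPM, equal sums with mitochondrial genes left out (mitochondria-free scaling below) and quantile normalization. Cdc45 was the only one of the 38 whose groups did not overlap under each of the 4.

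**Figure D1:**
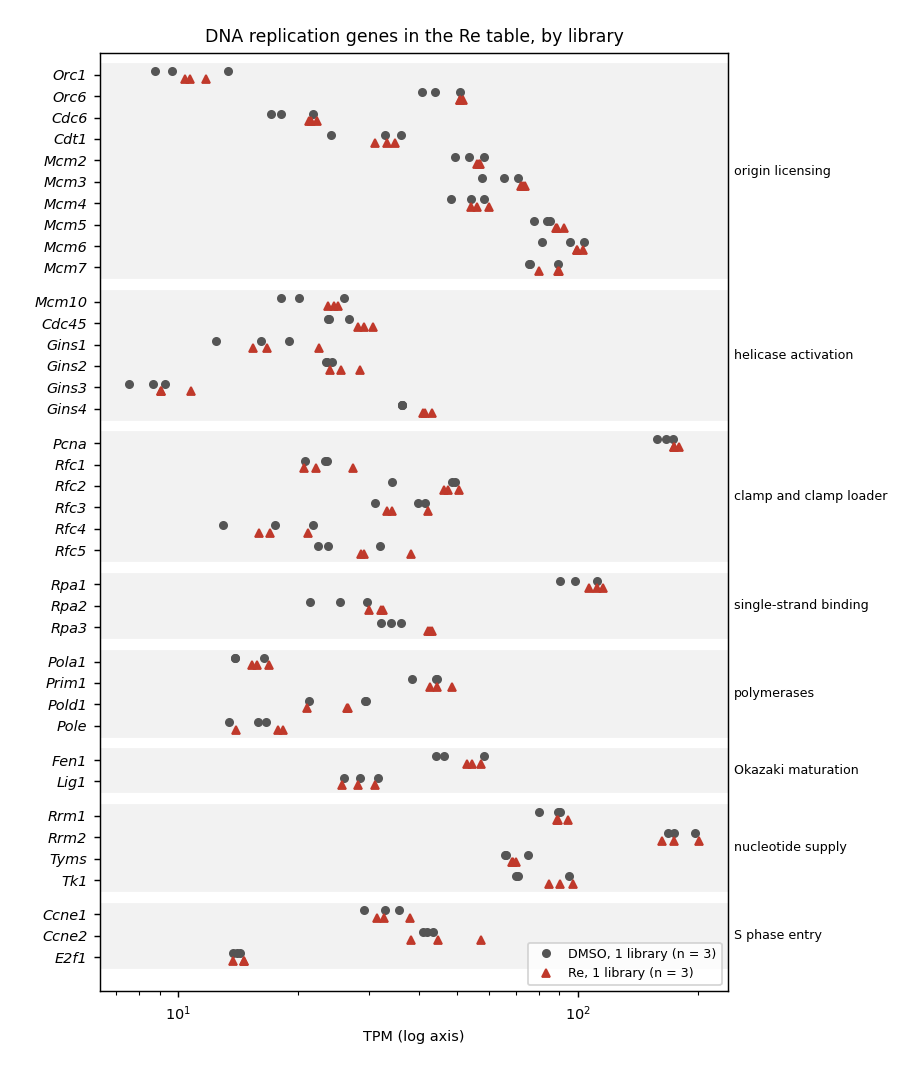
TPM (log axis) of the 38 replication genes in each DMSO library (circles) and each Re library (triangles), grouped by role. Levels span from Gins3 at 7.53 TPM to Rrm2 at 201.78 TPM, and for most genes the symbols of both groups interleave.

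The low and high values were spread unevenly over the libraries. DMSO replicate 2 was the lowest of the 6 for 24 of the 38 genes (63.2%) and for 51% of all genes tested. Re replicate 3 was the highest for 17 of the 38 (44.7%) and for 36.7% of all genes. These were also the libraries with the lowest and the highest sum of listed TPM. As a share of that sum the 38 genes made up 0.258% to 0.272% in DMSO and 0.270% to 0.275% in Re, and these ranges overlap. Without DMSO replicate 1 the groups did not overlap for 21 of the 38 genes, all higher in Re, as for 4067 of the 11967 genes tested, and 11 had an unadjusted p under 0.05 in limma, as did 1657 of all genes tested. The median of the 38 was then 0.19, beside 0.15 for all genes. Without DMSO replicate 2 it was 0.07, beside 0.05, and 2 of the 38 had an unadjusted p under 0.05, as did 586 of all genes tested. Without any of the other 4 libraries in turn 1 of the 38 did.

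Licensing genes load the helicase ring at origins. All 10 were above 0, with a median difference of 0.11 and a range from 0.06 to 0.19, although under median-of-ratios scaling 6 of them were below 0, 3 with mitochondrial genes left out and 4 under quantile normalization. Mcm3 (ENSMUSG00000041859), a ring subunit, was at 70.79, 57.52 and 65.49 TPM in DMSO and at 73.93, 72.28 and 73.07 TPM in Re. Its Re libraries lay close together and just above the highest DMSO library, with a difference of 0.18 (95% interval -0.04 to 0.40, limma, adjusted p = 0.687). Mcm5 (ENSMUSG00000005410), its neighbour in the ring, was at 85.52, 77.59 and 83.77 TPM in DMSO and at 89.02, 88.20 and 92.40 TPM in Re. All Re libraries were above all DMSO libraries, by a mean of 0.13 (95% interval -0.06 to 0.31).

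Mcm6 (ENSMUSG00000026355) was the most abundant ring subunit in the Re experiment, at 103.51, 81.50 and 95.86 TPM in DMSO and 99.74, 103.21 and 99.69 TPM in Re. The groups overlapped, DMSO replicate 1 was the highest library, and the difference of 0.11 was -0.00 under median-of-ratios scaling. Mcm4 (ENSMUSG00000022673), with Mcm6 and Mcm7 part of the catalytic core of the ring, was at 58.44, 48.21 and 54.12 TPM in DMSO and at 56.11, 54.24 and 59.87 TPM in Re. The groups overlapped, and the difference of 0.08 turned negative under median-of-ratios, quantile and mitochondria-free scaling. Among the other 6 licensing genes levels ran from Orc1, the largest subunit of the origin recognition complex, at 8.79 to 13.33 TPM, to Mcm7 at 75.57 to 90.08 TPM. All 6 had overlapping groups, with differences between 0.06 and 0.19.

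The helicase activators had differences between 0.12 and 0.24. All 6 genes were above 0 and above the median of all genes, with a median of 0.19, and all 6 stayed above 0 under each of the 4 other scalings. Cdc45 (ENSMUSG00000000028), which joins the ring to form the active helicase, was at 26.73, 23.82 and 23.78 TPM in DMSO and at 28.21, 29.18 and 30.74 TPM in Re. Every Re library was above every DMSO library, by 0.24 (95% interval 0.02 to 0.45, limma, adjusted p = 0.687). Gins4 (ENSMUSG00000031546), a subunit of the GINS complex, was at 36.40, 36.37 and 36.41 TPM in DMSO and at 41.04, 41.42 and 43.15 TPM in Re. The DMSO libraries were nearly equal and all lay below Re, with a difference of 0.20 (95% interval 0.01 to 0.38, limma, adjusted p = 0.687). Mcm10 (ENSMUSG00000026669), a scaffold for helicase activation, was at 26.02, 18.10 and 20.09 TPM in DMSO and at 23.79, 24.58 and 25.21 TPM in Re. DMSO replicate 1 was above all Re libraries, so the groups overlapped. Gins1, Gins2 and Gins3 had differences of 0.19, 0.12 and 0.16 with overlapping groups.

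The RPA trimer protects single-stranded DNA, and its 3 genes held the largest median of any role, 0.31, with all 3 above 0 under every scaling tried. Rpa3 (ENSMUSG00000012483), the smallest subunit, was at 34.15, 36.23 and 32.13 TPM in DMSO and at 42.76, 42.32 and 43.24 TPM in Re. The Re libraries lay within about 1 TPM of each other and all above DMSO, with means of 42.8 ± 0.46 and 34.2 ± 2.05 TPM (SD, n = 3 each). The difference of 0.32 (95% interval 0.12 to 0.51) had the smallest unadjusted p of the 38 genes, yet its adjusted p in limma was 0.687. Rpa2 (ENSMUSG00000028884), the subunit phosphorylated in the cell cycle and after damage, was at 29.80, 21.42 and 25.39 TPM in DMSO and at 32.61, 32.27 and 30.01 TPM in Re. Its groups were separated by a narrow gap, between DMSO replicate 1 and Re replicate 3. Rpa1 (ENSMUSG00000000751), the large subunit that makes most of the DNA contact, was at 111.94, 90.11 and 98.74 TPM in DMSO and 115.49, 112.01 and 107.04 TPM in Re. DMSO replicate 1 fell among the Re libraries.

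After median-of-ratios scaling the difference was 0.20 for Rpa3 and 0.20 for Rpa2, and the groups overlapped for both. For Rpa1 it was 0.04.

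**Figure D2:**
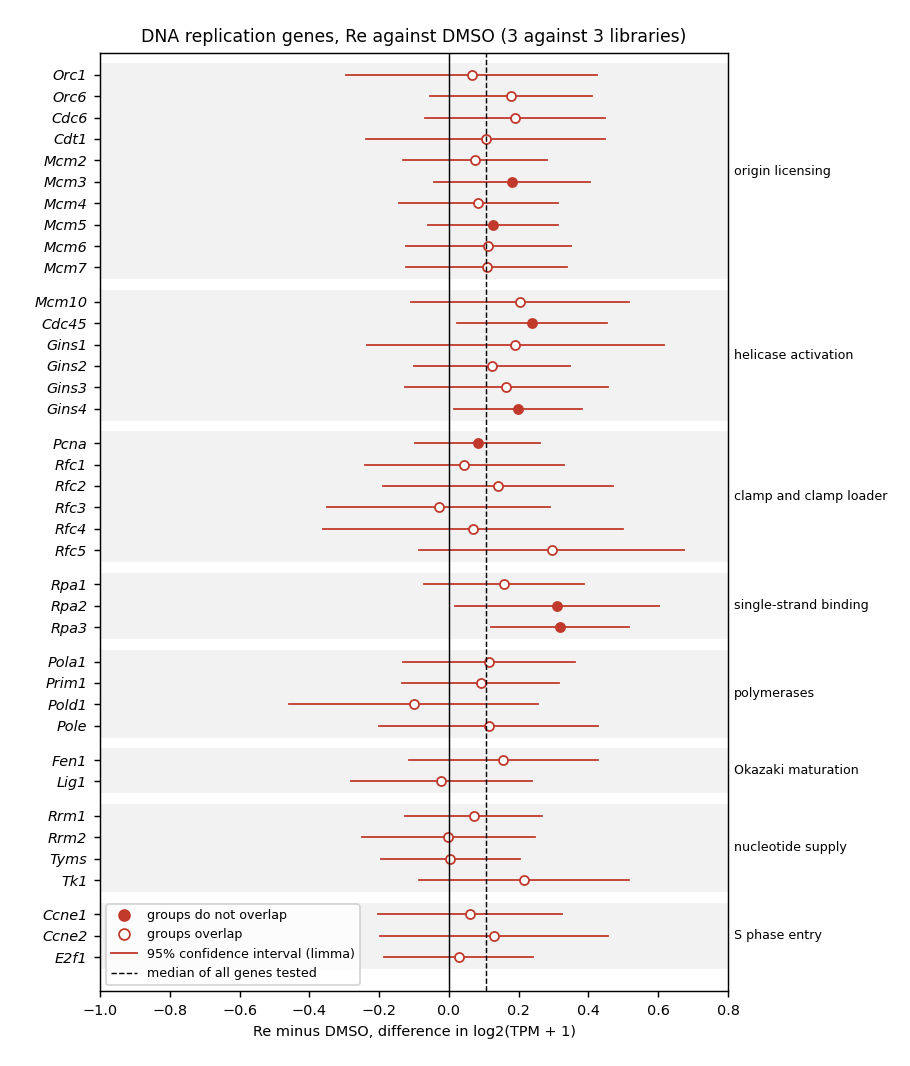
Re minus DMSO on the log2(TPM + 1) scale for the 38 replication genes by role, with 95% intervals from limma; filled points mark genes whose groups do not overlap and the dashed line the median of all genes tested (0.11). Rpa3, Rpa2, Cdc45 and Gins4 have intervals that lie above 0 before adjustment.

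Sliding clamp and clamp loader genes split around the median of all genes, with 5 of 6 above 0 and 2 above that median. Pcna (ENSMUSG00000027342), which encodes the clamp, was at 166.83, 158.09 and 173.02 TPM in DMSO and at 173.79, 179.30 and 173.93 TPM in Re. The groups did not overlap but nearly touched, and the difference of 0.08 turned negative under median-of-ratios and mitochondria-free scaling. Rfc5 (ENSMUSG00000029363), a small loader subunit, was at 32.04, 22.37 and 23.71 TPM in DMSO and at 28.71, 29.17 and 38.26 TPM in Re. DMSO replicate 1 overlapped with Re, and the interval of the difference of 0.29 ran from -0.09 to 0.67. Rfc1 (ENSMUSG00000029191), the large loader subunit, was at 23.64, 20.75 and 23.28 TPM in DMSO and at 22.21, 20.69 and 27.36 TPM in Re. Its groups interleaved, and its difference of 0.04 was negative under all 4 other scalings. Rfc2, Rfc3 and Rfc4 had differences of 0.14, -0.03 and 0.07, all with overlapping groups, and that of Rfc4 was positive under equal sums only among the 4 other scalings.

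None of the 4 polymerase genes had separate groups. Pola1 (ENSMUSG00000006678), the catalytic subunit of the priming polymerase, was at 16.43, 13.87 and 13.90 TPM in DMSO and at 15.76, 15.34 and 16.90 TPM in Re. Prim1 (ENSMUSG00000025395), the primase subunit that starts each strand with RNA, was at 44.44, 38.63 and 44.34 TPM in DMSO and at 48.64, 44.37 and 42.79 TPM in Re. Pole (ENSMUSG00000007080), the leading-strand polymerase, was at 15.88, 13.42 and 16.64 TPM in DMSO and 17.80, 13.96 and 18.35 TPM in Re. In each of these genes Re and DMSO libraries interleaved, with differences of 0.11, 0.09 and 0.11, and that of Prim1 turned negative under median-of-ratios and quantile scaling. Pold1, the lagging-strand polymerase, had the lowest difference of the 38 genes, -0.10, with an interval reaching to 0.26.

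Fen1 and Lig1 finish the Okazaki fragments by trimming flaps and sealing nicks. Fen1 (ENSMUSG00000024742) was at 58.25, 44.11 and 46.19 TPM in DMSO and at 57.45, 54.54 and 52.77 TPM in Re. Lig1 (ENSMUSG00000056394) was at 28.60, 26.01 and 31.71 TPM in DMSO and 25.67, 28.23 and 31.05 TPM in Re. The groups overlapped for both genes, with differences of 0.16 for Fen1 and -0.02 for Lig1.

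Nucleotide supply was represented by 4 genes. Tk1 (ENSMUSG00000025574), the thymidine kinase of the salvage route, was at 95.19, 70.98 and 70.21 TPM in DMSO and at 97.22, 90.51 and 84.81 TPM in Re. Its DMSO replicate 1 lay among the Re libraries while the other DMSO libraries were lower than all of them. Rrm2 (ENSMUSG00000020649), the S phase subunit of ribonucleotide reductase, was the most abundant of the 38 transcripts in both groups by mean, at 174.08, 196.12 and 168.22 TPM in DMSO and 162.85, 173.99 and 201.78 TPM in Re. Its highest and lowest libraries were both Re, and its difference was -0.00 (95% interval up to 0.25). Rrm1, the large reductase subunit, and Tyms, which makes thymidylate, had differences of 0.07 and 0.00, which were negative under 3 (Rrm1) and 4 (Tyms) of the 4 other scalings.

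S phase entry genes showed no separation. Ccne2 (ENSMUSG00000028212), a cyclin that drives the G1 to S transition, was at 40.95, 42.06 and 43.43 TPM in DMSO and at 38.32, 44.69 and 57.47 TPM in Re, so that Re replicate 3 stood high and Re replicate 1 low. E2f1 (ENSMUSG00000027490), an E2F factor and regulator of S phase genes, was at 14.04, 14.32 and 13.72 TPM in DMSO and at 13.70, 14.63 and 14.64 TPM in Re. Both groups covered nearly the same narrow range, and the difference of 0.03 was negative under all 4 other scalings. Ccne1, the related cyclin, had a difference of 0.06 with overlapping groups, negative under all 4 other scalings.

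Beyond the 38 genes, 93 other genes of the pathway were listed and 89 were tested, of which 0 had an adjusted p under 0.05 in limma. Their median difference was 0.11, with 73 above 0 and 16 below, and after median-of-ratios scaling 44 were above and 45 below. Groups did not overlap for 20 of the 89, all higher in Re, against 13.7% of all genes. After median-of-ratios scaling they did not overlap for 4 of the 89 that were higher and 6 that were lower. Of all 11967 genes tested, 627 were then higher without overlap and 593 lower. Counts above 0 in the lists that follow stand beside 77.5% of all genes tested, and scaled counts are those after median-of-ratios scaling. Origin and firing genes had 14 of 15 above 0 (10 scaled), and the smallest p-values belonged to Gmnn, which encodes the licensing inhibitor geminin (0.25), Cdc7, the kinase that fires origins (0.25), and Dbf4, its activating subunit (0.22).

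Accessory polymerase subunits had 7 of 8 above 0 (4 scaled). Pold3, a subunit of the lagging-strand polymerase, was at 20.60, 18.53 and 20.25 TPM in DMSO and at 24.17, 26.58 and 25.82 TPM in Re, without overlap and with a difference of 0.35, against -0.10 for the catalytic subunit Pold1. The other subunits with small p-values were Pola2 (0.17) and Prim2 (0.15). Fork and maturation genes had 20 of 24 above 0 (14 scaled), led by p by Rad17 (0.37), a loader of the checkpoint clamp, Rnaseh2a (0.36), which removes RNA from DNA, and Timeless (0.41), a fork protection factor. Groups did not overlap in any of these 3.

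Other nucleotide supply genes had 13 of 17 above 0 (8 scaled), with Dctpp1 (0.34), Impdh2 (0.18) and Mthfd1 (0.19) at the smallest p. G1 to S control genes had 19 of 25 above 0 (8 scaled) and a median of 0.04 (-0.06 scaled), and the 3 named by p were Cdkn2c (0.35) and Cdkn1b (0.26), which encode inhibitors of cyclin-dependent kinases, and Tfdp2 (0.27), an E2F partner. Mitosis genes, a list outside replication, had 22 of 25 above 0 (12 scaled) and a median of 0.10 (-0.01 scaled), with Cenpa (0.32), Kif20a (0.17) and Prc1 (0.17) named by p. All of these genes had an adjusted p of 0.687 in limma.

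In the GBC pair the replication transcripts were listed higher with GBC, and a few by far more than the rest. Mcm10, Lig1, Mcm4, Orc1 and Rrm2 were at more than 2-fold their DMSO level in TPM, while Gins2, Fen1 and Orc6 were near it. With 1 library in each group there is no replicate check and no test. A difference of at least 1 at a mean of at least 5 TPM was used as the size to report. It was reached by 4 of the 38 genes (10.5%), against 4.97% of all 6639 genes at that level, and no replication gene was lower by that size, against 0.241%. A difference of at least 0.5 was reached by 9 of 38 (23.7%), below the 28.4% of all genes.

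The pair as a whole was shifted. The median difference of 10989 genes was 0.32 and 88.8% of them were above 0. The 38 genes had a median of 0.23, 37 were above 0, and 13 lay above the median of all genes. After median-of-ratios scaling 0 of 38 reached a difference of 1, against 1.52% of all genes, their median was -0.14, and 11 were above 0: Mcm10, Lig1, Mcm4, Rrm2, Orc1, Cdt1, Rfc1, Pole, Rfc5, Pold1 and Pola1. All other positive values given below for the 38 genes were negative after that scaling. The direction of the replication genes as a group in the pair therefore changed with the scaling.

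Mcm10 was at 7.0 TPM without GBC and 16.54 TPM with it, a difference of 1.13 on the log2(TPM + 1) scale. Mcm4 was at 15.37 and 34.11 TPM (1.10). Lig1 was at 4.0 and 9.63 TPM (1.09). These 3 genes belong to different steps, activation, licensing and ligation. Rrm2 was at 11.90 and 25.97 TPM (1.06), and Orc1, just under the size, was at 4.42 and 9.72 TPM (0.98). After these, Cdt1, the licensing factor degraded in S phase, was at 14.24 and 24.74 TPM (0.76). The same 6 genes were the highest after median-of-ratios scaling, at 0.78 for Mcm10, 0.76 for Lig1, 0.73 for Mcm4, 0.70 for Rrm2, 0.65 for Orc1 and 0.39 for Cdt1.

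**Figure D3:**
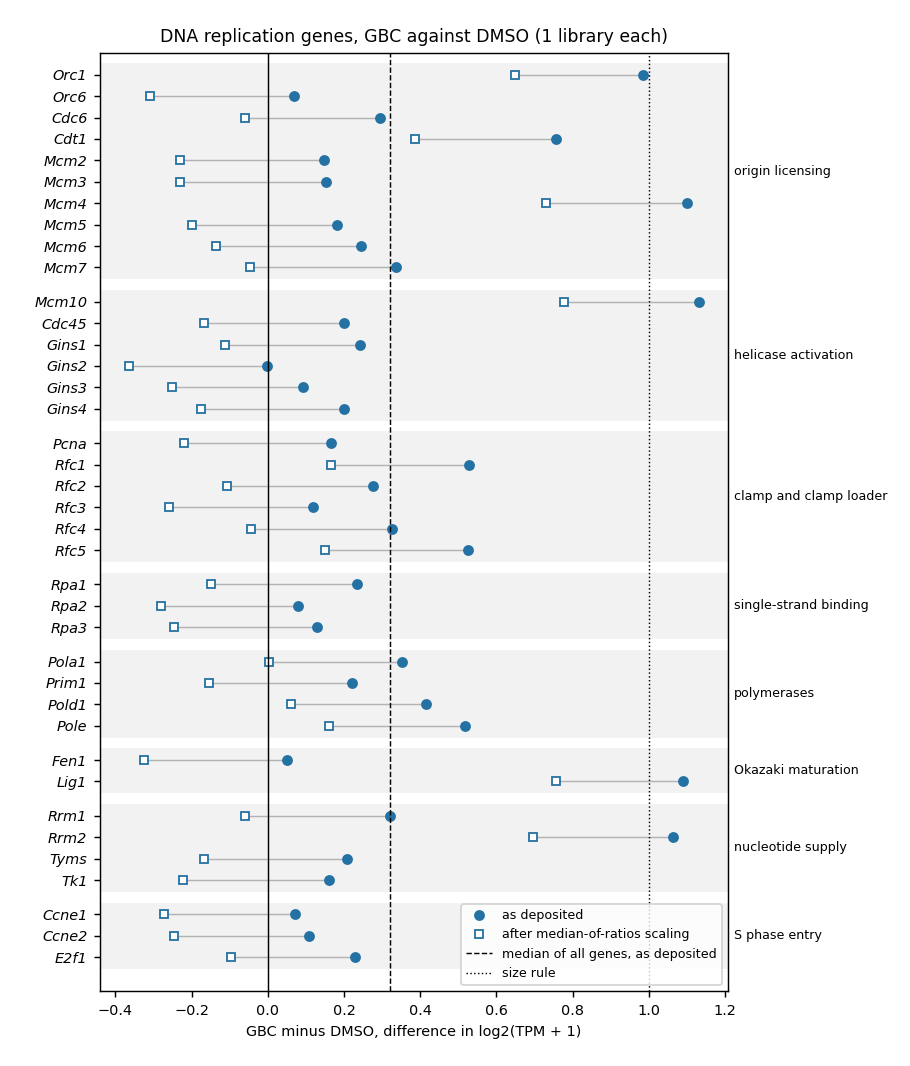
GBC minus DMSO on the log2(TPM + 1) scale for the 38 replication genes by role, 1 library each, as deposited (filled) and after median-of-ratios scaling (open squares); the dashed line is the median of all genes (0.32) and the dotted line the size of 1. Mcm10, Mcm4, Lig1 and Rrm2 pass the dotted line as deposited, and after scaling no gene does.

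Their partners in the same complexes and steps lay far lower. Among the other ring subunits Mcm2, Mcm3, Mcm5, Mcm6 and Mcm7 the differences were 0.15, 0.15, 0.18, 0.25 and 0.34, and all 5 were below 0 after median-of-ratios scaling. Mcm3 was at 44.77 and 49.85 TPM, Mcm5 at 47.26 and 53.75 TPM, and Mcm6 at 38.74 and 46.11 TPM in DMSO and GBC. The helicase activators other than Mcm10 were close to their DMSO level, with Cdc45 at 15.46 and 17.91 TPM, Gins4 at 21.60 and 24.94 TPM, and Gins2 at 13.54 and 13.51 TPM, the only one of the 38 not higher in GBC.

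Among clamp and loader genes Rfc1 was at 11.35 and 16.80 TPM (0.53) and Rfc5 at 21.74 and 31.70 TPM (0.52), against Pcna at 101.59 and 114.02 TPM (0.16). The RPA genes, highest as a role after Re, had a median of 0.13 in the pair, with Rpa1 at 57.76 and 68.05 TPM, Rpa2 at 11.53 and 12.23 TPM and Rpa3 at 24.01 and 26.33 TPM. The polymerases had a median of 0.38, with Pole at 9.22 and 13.62 TPM (0.52), Pola1 at 7.20 and 9.46 TPM (0.35) and Prim1 at 24.59 and 28.81 TPM (0.22). Whether roles differ between Re and GBC was not tested.

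Fen1 was at 29.06 and 30.14 TPM (0.05), far from Lig1. Tk1 was at 49.25 and 55.15 TPM (0.16) and Rrm1 at 31.92 and 40.09 TPM (0.32). At S phase entry Ccne2 was at 9.98 and 10.84 TPM (0.11) and E2f1 at 4.58 and 5.54 TPM (0.23). The 16 members not given in every library of the Re experiment ran in the pair from Gins2 at -0.00 to Orc1 at 0.98.

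A ratio between genes of one library does not depend on that library's scale, and the following ratios were chosen after the values were seen. Mcm4 made up 6.61% of the summed TPM of the Mcm2 to Mcm7 genes in the DMSO library of the pair and 11.81% in the GBC library. In the Re experiment its share was 12.55%, 12.37% and 12.63% in DMSO and 12.31%, 11.71% and 12.69% in Re. The DMSO library of the pair was thus the one that stood apart from the other 7.

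Mcm10 over Cdc45 was 0.453 without GBC and 0.924 with it, against 0.760 to 0.973 in the 6 libraries of the Re experiment. Orc1 over Orc6 was 0.128 and 0.268, against 0.189 to 0.327. In both ratios, too, the GBC value lay within the range of the Re experiment and the DMSO value below it. Cdt1 over Cdc6 went otherwise, at 1.482 (within 1.413 to 1.821) without GBC and 2.058 (above that range) with it. Ccne2 over Ccne1 was within the range of 1.169 to 1.507 in both libraries of the pair, at 1.320 and 1.355. Lig1 over Fen1 was 0.138 and 0.320, against 0.447 to 0.687. Rrm2 over Rrm1 was 0.373 and 0.648, against 1.825 to 2.449, so that for Lig1 over Fen1 and Rrm2 over Rrm1 both libraries of the pair were below all 6. The tables differ in the marker levels given above, and their part in these ratios was not tested.

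**Figure D4:**
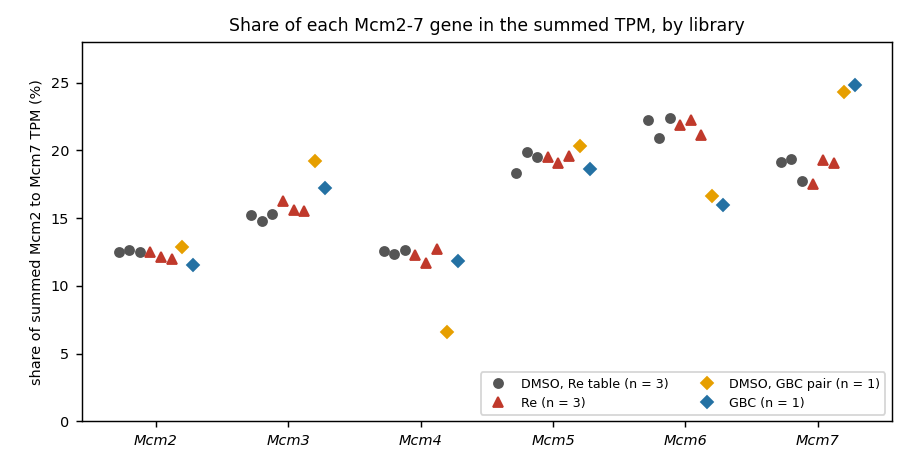
Share of each gene in the summed TPM of Mcm2 to Mcm7 (%) in each of the 8 libraries. Mcm4 is at 6.61% in the DMSO library of the pair and between 11.71% and 12.69% in the other libraries, and Mcm7 holds the largest share in the pair while Mcm6 does in the Re experiment.

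Differences in the pair also ran with gene length. Over 5 equal bins of exon length (GENCODE M21, GRCm38) the median difference of all genes was 0.13, 0.23, 0.29, 0.36 and 0.52 from the shortest to the longest. Rrm2 (2771 bases) was in the second bin, Mcm4 (3589 bases) and Lig1 (4268 bases) in the middle one and Mcm10 (7692 bases) in the longest. The replication genes of each bin had medians of 0.22, 0.09, 0.23, 0.23 and 0.43 (4, 9, 14, 7 and 4 genes), below that of all genes of the bin in every bin but the shortest. The part of length in these differences was not tested.

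Counts above 0 for the other pathway genes in the pair stand beside 88.8% of all genes, and scaled values are again those after median-of-ratios scaling, which puts the median of all genes at 0. Origin and firing genes were above 0 in 15 of 15 (9 scaled), with a median of 0.44 (0.07 scaled) and Mcmbp, an Mcm-binding protein, at 1.16, Orc5 at 0.86 and Donson at 0.74. Fork and maturation genes were above 0 in 22 of 24 (13 scaled), with Asf1b, a histone chaperone, at 1.02, Timeless at 0.98 and the topoisomerase Top1 at 0.91. Accessory polymerase subunits were above 0 in 6 of 8 (1 scaled), with Pola2 at 0.53, Pold3 at 0.30 and Prim2 at 0.20. Nucleotide supply genes were above 0 in 16 of 17 (9 scaled), with Umps at 0.74, Mthfd1 at 0.57 and Cad at 0.56. Umps and Cad serve pyrimidine synthesis, and Mthfd1 serves folate metabolism. G1 to S control genes were above 0 in 20 of 24 (13 scaled), with the cyclin Ccnd3 at 1.16, E2f7 at 1.15 and the phosphatase Cdc25a at 0.94.

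Mitosis genes reached a difference of 1 in 5 of 25, against 4.97% of all genes, and in 1 of 25 after median-of-ratios scaling. Their differences were led by Foxm1 (1.43), a transcription factor of late cell-cycle genes, Cenpf (1.33) and Plk1 (1.25). The list's median was 0.39, beside 0.32 for all genes in the pair, and 0.02 after scaling.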

How the data were processed

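RNA was taken from C2C12 cells with a Qiagen RNeasy kit and made into TruSeq RNA libraries, per the labels' protocols. The authors deposited log2(TPM + 1) values per gene and library in 2 tables, 1 for the Re experiment and 1 for the GBC pair. STAR and RSEM, both without version, are listed per the submitters' processing notes, as are the builds GRCh38 and GRCm39, with no role stated. RSEM divides reads that match several places, so genes with near-identical copies are less certain. TPM keeps no read depth, so no depth per library is given.

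TPM were taken back as 2 to the power of the deposited value, minus 1. Groups came from the labels. For Re against DMSO, limma 3.58.1 (R 4.3.3, moderated test with trend) was fitted to the deposited values of the 11967 genes averaging 1 TPM or more, with Benjamini-Hochberg adjustment over all of them. Intervals are 95% and unadjusted for multiple testing. The GBC pair, 1 library each, got no test: a difference of 1 at a mean of at least 5 TPM was the size reported, and medians used genes averaging 1 TPM or more. The fit was tested on simulated data with changes larger than any Re difference of the members, so differences of their size were not covered. Python 3.11.15 was used for the rest. Values in every library are given for the member of each role with the smallest p for Re, the highest mean level or the largest GBC difference, and for all members without overlap or past the GBC size. From each other list, up to 3 genes with the smallest p or largest difference are named. The members and lists were chosen with earlier results of these data known. Other pseudocounts, filters, scalings, limma settings, the fit without each library in turn and a replicate block were tried.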

Additional observations from a re-analysis of the deposited data

How the results depend on the processing

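At an adjusted p under 0.05, limma called 0 of the 38 genes under each alternative tried, leaving out any 1 library included, where 0 to 7 of all genes were called. As deposited, 4 had an unadjusted p under 0.05 in limma. That count was 0 after median-of-ratios scaling, 3 with equal sums, 2 with mitochondrial genes left out and 0 after quantile normalization. In the same order 565, 649, 554 and 586 of all genes tested passed, beside 745 as deposited. Without the trend 2 members and 732 of all genes passed, and with the replicate block 2 members and 810 of all genes. The count of members with every Re library above every DMSO library depended on scaling: 7 as deposited, 1 after median-of-ratios scaling, 4 with equal sums, 3 with mitochondrial genes left out and 1 after quantile normalization. In the same order it was 1639, 627, 1038, 843 and 645 of all 11967 genes tested (11952 with mitochondrial genes left out). With 1 library left out, 8 to 21 members did not overlap in either direction, with 21 without DMSO replicate 1. Of all genes, 2018 to 4067 were then higher without overlap and 279 to 696 lower. The median difference of the 38 genes, 0.11, was 0.0062 after median-of-ratios scaling and 0.0115 after quantile normalization. It ran from 0.0651 without DMSO replicate 2 to 0.187 without DMSO replicate 1. In the GBC pair the count of 4 was 9 with a size of 0.5. It was 0 after median-of-ratios scaling, with equal sums or with mitochondrial genes left out. In the same order 101 of 6639, 157 of 6639 and 167 of 6624 of all genes were higher by a size of 1. The median of 0.23 became -0.14, -0.0065 and 0.0352 under these scalings. In these scalings the whole table moves, by construction.

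Differences between Re and DMSO changed sign under at least 1 alternative for 9 of the 22 members given in every library. Under median-of-ratios scaling Mcm6 was -0.0007, Mcm4 -0.0291, Pcna -0.0323, Rfc1 -0.0658, Prim1 -0.0217 and E2f1 -0.0801. With equal sums Rfc1 was -0.0198 and E2f1 -0.0351. With mitochondrial genes left out Mcm4 was -0.0061, Pcna -0.0091, Rfc1 -0.0434 and E2f1 -0.0583. After quantile normalization Mcm4 was -0.0146, Rfc1 -0.0559, Prim1 -0.0120 and E2f1 -0.0769. With 1 library left out Rfc1 ran from -0.0680 to 0.1254, Rrm2 from -0.0888 to 0.0649, Lig1 from -0.0900 to 0.0481 and Ccne2 from -0.0253 to 0.2609.

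The sample titles number the replicates alike in both groups, while the library descriptions number the Re libraries on from the DMSO libraries. Libraries with the same title number had correlations of 0.163, 0.077 and 0.017 in their deviations from the group means. The other combinations ran from -0.172 to 0.094. Re replicates 1 and 2 correlated best with the DMSO library of the same number, and Re replicate 3 with DMSO replicate 2. Deviations of 3 libraries from their mean are tied to each other, so these values do not decide whether libraries were paired. The main fit did not pair them. With the replicate number as a block, limma called 0 members (smallest adjusted p = 0.663) and 0 of all genes, and 810 rather than 745 genes had an unadjusted p under 0.05.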

Other observations

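Regulators of S phase entry outside the 38 genes differed in level between the tables, given here as description because the listed sums differed between the tables. Ccnd2, a D-type cyclin, was at 0.02 to 0.50 TPM in the 6 libraries of the Re experiment and at 8.26 (DMSO) and 13.97 TPM (GBC) in the pair. E2f6, an E2F repressor, was at 9.96 to 16.57 TPM in the Re experiment and listed at 0 and 0.02 TPM in the pair. Cdkn1a, the inhibitor p21, was at 66.38 to 77.71 TPM in the Re experiment and at 22.44 and 17.22 TPM in the pair. Cdkn2a and Cdkn2b, which encode inhibitors of cyclin D kinases, were listed at 0 in all 8 libraries. Rrm2 was at 162.85 to 201.78 TPM in the Re experiment and at 11.90 and 25.97 TPM in the pair, whereas Rfc3, at 31.20 to 42.15 TPM and at 33.98 and 36.98 TPM, covered a like range in both. The genes of this paragraph were chosen after their values were seen.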
